A study of Mus musculus with 207 samples.

Results

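Endoplasmic reticulum (ER) chaperones and folding enzymes were followed through 3 mouse tissues as the protein source and the fat content of the diet were varied. The set was given by name and held 10 genes: Hspa5, Calr, Pdia6, Pdia4, Hsp90b1, Sdf2l1, Dnajb9, Hyou1, Xbp1 and Creld2. Their rows were taken by Ensembl identifier from the gene tables of jejunum and liver (55536 genes each) and hypothalamus (21883 genes). All 10 were present in every table, and all 10 passed the filter on low values in each tissue, among 16992, 15051 and 14830 genes tested in jejunum, liver and hypothalamus.

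Total RNA of C57BL/6 mice was sequenced in 207 libraries, whose labels give the tissue, the diet and a mouse identifier. The 6 diets combined WPI or CAS at a protein level of 30 with a fat level of 20, 40 or 55, here called FAT-20, FAT-40 and FAT-55. The labels give no unit for these levels, and WPI and CAS are read here as whey protein isolate and casein. Jejunum and liver each had 12 mice per WPI diet, against 11, 12 and 11 mice on the CAS diets from low to high fat. Hypothalamus had 11, 11 and 12 mice on WPI and 10, 12 and 11 mice on CAS in the same order. All mice shared the strain and the protein level, and the labels give neither sex, age nor a chow-fed group.

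Proteins that are secreted or sit in membranes fold in the lumen of the ER, where chaperones of the Hsp70 and Hsp90 families, lectins and disulfide isomerases hold and oxidise the new chains. When unfolded chains build up, the sensors IRE1, PERK and ATF6 in the ER membrane switch on the genes of these helpers, a program called the unfolded protein response. Liver, intestinal epithelium and neuroendocrine cells export much protein, and in liver the program is known to follow feeding as well as stress.

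Several genes of the set are classical targets of ATF6 and XBP1 through the ER stress response element, which is CCAAT, then any 9 bases, then CCACG. This element was searched on both strands in the 150 bases before the start site of each gene (RefSeq promoters, GRCm38.p6). It was present in 4 of the 9 genes of the set that had a promoter in the table, and in 27 of all 32851 promoters (0.082%). The related element with ATTGG, 1 base and CCACG was in 0 of the 9 and in 8 of all promoters (0.024%). The core TGACG followed by TGG was in 0 of the 9 and in 137 of all (0.417%). A match describes the letters only. The 4 matching stretches are shown because they carry the same letters in genes of different roles, an Hsp70 (Hspa5), a disulfide isomerase (Pdia6), an Hsp90 (Hsp90b1) and a stress protein that is partly secreted (Creld2). Each reads 5′ to 3′ on the strand of its gene and ends at the base before the RefSeq start site. For Hspa5, Pdia6 and Hsp90b1 that site lies inside the GENCODE gene model given below. Their windows therefore reach into the model, and the Hspa5 element lies within it. Capitals mark the element, which reads forward in Hspa5 (bases 65 to 47 before the start) and Pdia6 (98 to 80), and in reverse in Hsp90b1 (107 to 89) and Creld2 (126 to 108). The windows are chr2:34771940-34772089 (plus strand), chr12:17266439-17266588 (plus), chr10:86705445-86705594 (minus) and chr15:88819496-88819645 (plus).
Hspa5: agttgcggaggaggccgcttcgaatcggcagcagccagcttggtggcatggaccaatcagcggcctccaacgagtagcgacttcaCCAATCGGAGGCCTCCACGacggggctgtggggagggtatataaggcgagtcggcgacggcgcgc
Pdia6: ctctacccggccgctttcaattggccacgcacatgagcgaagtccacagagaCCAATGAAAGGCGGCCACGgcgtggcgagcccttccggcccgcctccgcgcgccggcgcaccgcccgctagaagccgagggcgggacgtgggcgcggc
Hsp90b1: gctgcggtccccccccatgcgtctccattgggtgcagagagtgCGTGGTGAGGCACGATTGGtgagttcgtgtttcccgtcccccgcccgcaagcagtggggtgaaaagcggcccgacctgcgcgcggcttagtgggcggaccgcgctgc
Creld2: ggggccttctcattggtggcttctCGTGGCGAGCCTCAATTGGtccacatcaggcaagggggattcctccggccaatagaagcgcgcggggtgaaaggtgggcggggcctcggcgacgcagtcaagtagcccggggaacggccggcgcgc

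The genes lie on 9 chromosomes (GRCm38, gene models of GENCODE M21), with Pdia6 and Dnajb9 on the same one. Hspa5 is at chr2:34771970-34777547, Hyou1 at chr9:44379490-44392369, Dnajb9 at chr12:44205559-44210326 and Sdf2l1 at chr16:17130138-17132383. Hsp90b1 is at chr10:86690209-86705509, Calr at chr8:84841850-84846934 and Xbp1 at chr11:5520659-5525893. Pdia4 is at chr6:47796141-47813430, Pdia6 at chr12:17266545-17284770 and Creld2 at chr15:88819646-88826683. Pdia6 overlaps Atp6v1c2 on the other strand, Hsp90b1 overlaps the pseudogene 1810014B01Rik on the other strand and the transcript Gm15344 on its own, and Calr has a short processed pseudogene on chromosome 2. Whether strand was used in counting is not given in the sources used here, so reads in these overlaps cannot be assigned with certainty.

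Jejunum libraries held 17.5M to 23.8M reads on genes, liver libraries 21M to 41M reads and hypothalamus libraries 14.4M to 16.1M reads, and the fewest reads behind any value of the set were 73, for Sdf2l1 in 1 liver library. A library was said to stand apart where the median deviation of its genes from the median library of the tissue exceeded 0.3 on the log2 scale. This held for 1 jejunum library (WPI FAT-40, replicate 12), 1 liver library (WPI FAT-55, replicate 2) and 10 hypothalamus libraries. The 10 were 5 of 11 on WPI FAT-20, 2 of 12 on WPI FAT-55 and 3 of 10 on CAS FAT-20, and the calls of the set in hypothalamus are given with and without them. Hepatocyte markers summed to 68370 to 142300 CPM (counts scaled to a common library size, with TMM factors) in liver, and the peptide genes of hypothalamic neurons summed to 352 to 1623 CPM in hypothalamus. Enterocyte markers summed to 13060 to 36010 CPM in jejunum. Mouse identifiers shared all but their last digit in 24 stems per tissue, 4 per diet. The labels do not say what a stem is. The correlation between libraries of one stem came to 0.114 (jejunum), 0.16 (liver) and 0.34 (hypothalamus), so tests that take mice as independent were repeated over stems.

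The level of each gene was first compared per kilobase of exon. Calr, the calcium-binding lectin chaperone, had the highest median in all 3 tissues, at 113 CPM per kb in hypothalamus, 175 in jejunum and 142 in liver. Hspa5, the Hsp70 of the ER, came next at 85.4, 112.5 and 122.0 CPM per kb in hypothalamus, jejunum and liver. Sdf2l1, a partner of ER J-domain proteins, was the lowest in liver at 6.77 CPM per kb, while in hypothalamus the lowest medians were those of Creld2 (12.8) and Sdf2l1 (13.2). In jejunum Hyou1 was lowest at 14.9 CPM per kb. The tables were normalised separately, so these levels are set side by side and not tested between tissues. In liver the highest library exceeded the lowest by 13.9 times for Sdf2l1 (2.57 to 35.7 CPM), by 11.04 times for Creld2 and by 2.41 times for Hsp90b1.

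More dietary fat went with lower ER chaperone RNA in the jejunum. On WPI, 8 of the 10 genes fell at FAT-55 against FAT-20 and 0 fell at FAT-40. At FAT-40 on WPI 2 had an unadjusted p under 0.05, among them Dnajb9, which rose. On CAS 9 of 10 fell at FAT-40 and 6 of 10 at FAT-55. The median log2 fold change of the set was -0.09 for FAT-40 and -0.33 for FAT-55 on WPI, and -0.43 for FAT-40 and -0.29 for FAT-55 on CAS, beside medians over all tested genes between -0.03 and -0.01. A gene was called where edgeR's quasi-likelihood test gave an adjusted p under 0.05, with the Benjamini-Hochberg adjustment made over every tested gene of the tissue. Of all genes tested, 13.04% were called lower for FAT-40 and 16.6% for FAT-55 on WPI, and 12.4% for FAT-40 and 13.3% for FAT-55 on CAS. In whole tissue, fewer cells of a type and less RNA per cell cannot be told apart.

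**Figure D1:**
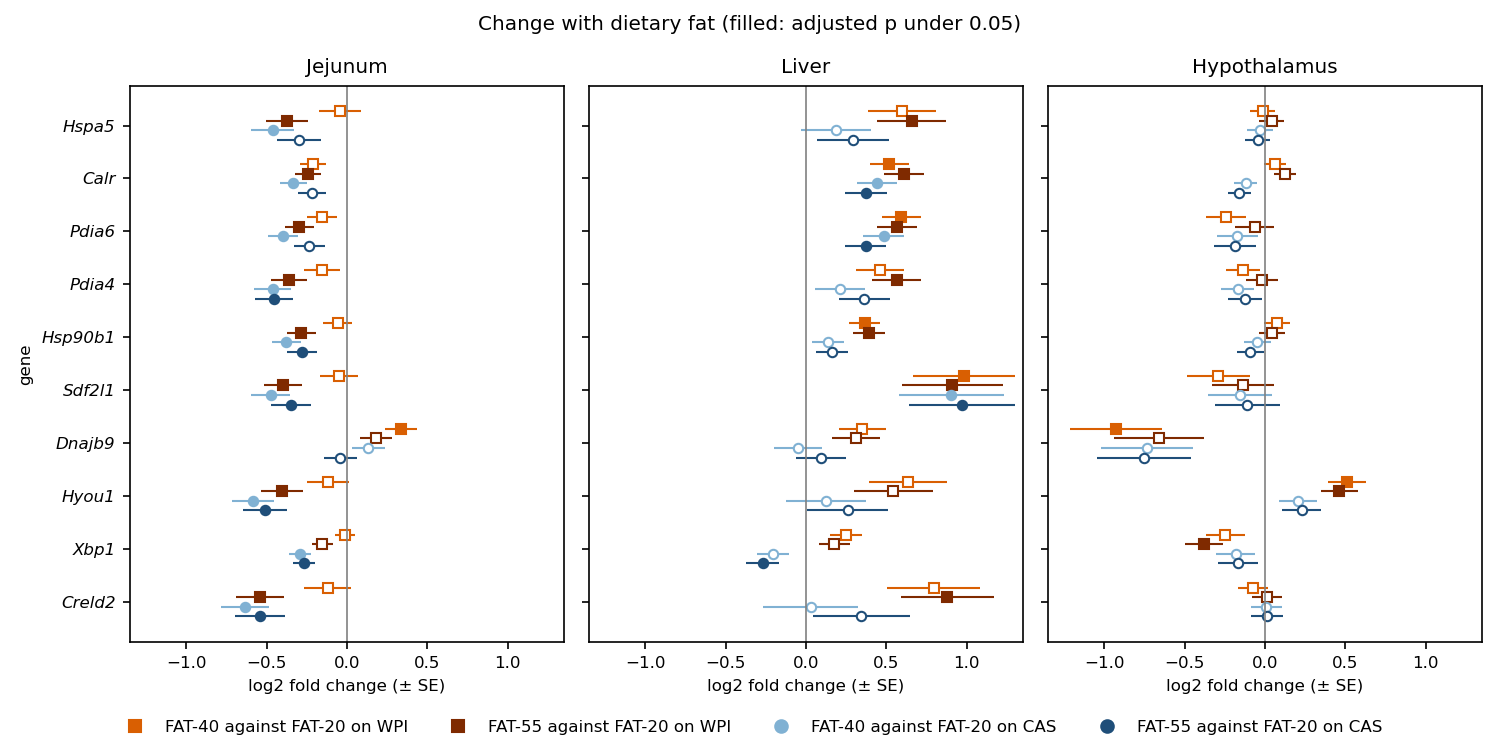
Log2 fold change (x axis, ± SE) of each gene (rows) with dietary fat in jejunum, liver and hypothalamus, for FAT-40 and FAT-55 against FAT-20 on WPI (squares) and on CAS (circles); filled symbols passed an adjusted p of 0.05. In jejunum 24 of 40 symbols are filled, 23 of them left of zero, and in liver 18 of 40 are filled, 17 of them right of zero; Dnajb9 lies near or right of zero in jejunum, and in hypothalamus only Dnajb9, Hyou1 and Xbp1 have filled symbols.

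Hspa5 and its helpers give the pattern. Hspa5 had a lowest, median and highest level of 248, 422 and 596 CPM in jejunum on CAS FAT-40, against 442, 568 and 739.9 CPM on CAS FAT-20. The ranges overlapped, but 11 of 12 FAT-40 mice lay below the FAT-20 median, and the log2 fold change was -0.46 ± 0.13 (SE; edgeR adjusted p = 0.0083). On WPI, Hspa5 spanned 328 to 643 CPM at FAT-55 with a median of 439, against 417 to 698 CPM at FAT-20 with a median of 547, a log2 fold change of -0.37 ± 0.13 (edgeR adjusted p = 0.024). Again 11 of 12 FAT-55 mice were below the FAT-20 median. Hyou1, the nucleotide exchange factor that resets Hspa5, fell by 0.59 ± 0.13 on the log2 scale on CAS FAT-40, with 63.9, 91.2 and 135 CPM (lowest, median, highest) against 109, 134 and 177 CPM on CAS FAT-20 (edgeR adjusted p = 0.00095). Sdf2l1 had 15.2, 19.9 and 27.2 CPM on CAS FAT-40 against 23.2, 28.8 and 38.6 CPM on CAS FAT-20, a log2 fold change of -0.48 ± 0.12 (edgeR adjusted p = 0.0027). All 12 FAT-40 mice were below the FAT-20 median of Sdf2l1, and both Hyou1 and Sdf2l1 were also called lower in the other comparisons of FAT-55 with FAT-20.

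Dnajb9, a J-domain cochaperone that hands misfolded chains to degradation and holds back IRE1, did not go with them. Its level on WPI FAT-40 was 60.1, 71.98 and 91.6 CPM (lowest, median, highest), against 44.3, 59.4 and 90.1 CPM on WPI FAT-20. All 12 FAT-40 mice lay above the FAT-20 median though the ranges overlapped, and Dnajb9 rose by 0.33 ± 0.10 on the log2 scale (edgeR adjusted p = 0.01). This was the 1 gene of the set called higher in that comparison, where 12.7% of all genes were called higher. Its other jejunum fold changes with fat ran from -0.04 to 0.18 and none passed.

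The other luminal chaperones moved with Hspa5. Calr had 316, 459.8 and 547 CPM (lowest, median, highest) on CAS FAT-40 against 457, 583 and 669.7 CPM on CAS FAT-20, and fell by 0.33 ± 0.085 on the log2 scale (edgeR adjusted p = 0.0029). Hsp90b1, the Hsp90 of the ER, had 200.2, 267 and 324 CPM on CAS FAT-40 against 268, 361 and 406 CPM on CAS FAT-20 (log2 fold change -0.38 ± 0.091, edgeR adjusted p = 0.0017). For both genes all 12 FAT-40 mice lay below the FAT-20 median while the ranges overlapped. On WPI FAT-55 Calr and Hsp90b1 were called lower as well, by log2 fold changes of -0.24 and -0.29. On CAS FAT-55 Hsp90b1 was called lower (-0.28) and Calr was at -0.22 with an edgeR adjusted p of 0.054.

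The enzymes that make and shuffle disulfide bonds followed. Pdia4 fell by log2 fold changes of -0.46 at both FAT-40 and FAT-55 on CAS and of -0.36 at FAT-55 on WPI. Pdia6 fell by log2 fold changes of -0.40 at FAT-40 on CAS and of -0.30 at FAT-55 on WPI, and was at -0.23 at FAT-55 on CAS (edgeR adjusted p = 0.059). Creld2, an ER stress protein with isomerase activity, showed the largest fold change of the set on CAS FAT-40. It had 19.3, 27.2 and 39.7 CPM (lowest, median, highest) there, against 29.1, 42.7 and 55.2 CPM on CAS FAT-20, a log2 fold change of -0.64 ± 0.15 (edgeR adjusted p = 0.0016). None of the 12 FAT-40 mice exceeded the FAT-20 median. On WPI FAT-55 Creld2 had 16.8, 27.0 and 36.8 CPM against 29.0, 37.3 and 53.4 CPM on WPI FAT-20 (-0.54 ± 0.15, edgeR adjusted p = 0.0039), also with all 12 FAT-55 mice below the FAT-20 median.

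Xbp1, the transcription factor whose RNA is spliced by IRE1, varied least within diets in jejunum, with an SD of 0.151 on the log2 scale. It had 214, 239 and 275 CPM (lowest, median, highest) on CAS FAT-40 and 185, 251 and 311 CPM on CAS FAT-55, against 227, 297 and 348 CPM on CAS FAT-20. Both comparisons were called lower, with log2 fold changes of -0.29 ± 0.066 (edgeR adjusted p = 0.00084) and -0.27 ± 0.067 (edgeR adjusted p = 0.0019). Counts per gene do not show how much of the RNA was spliced.

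**Figure D2:**
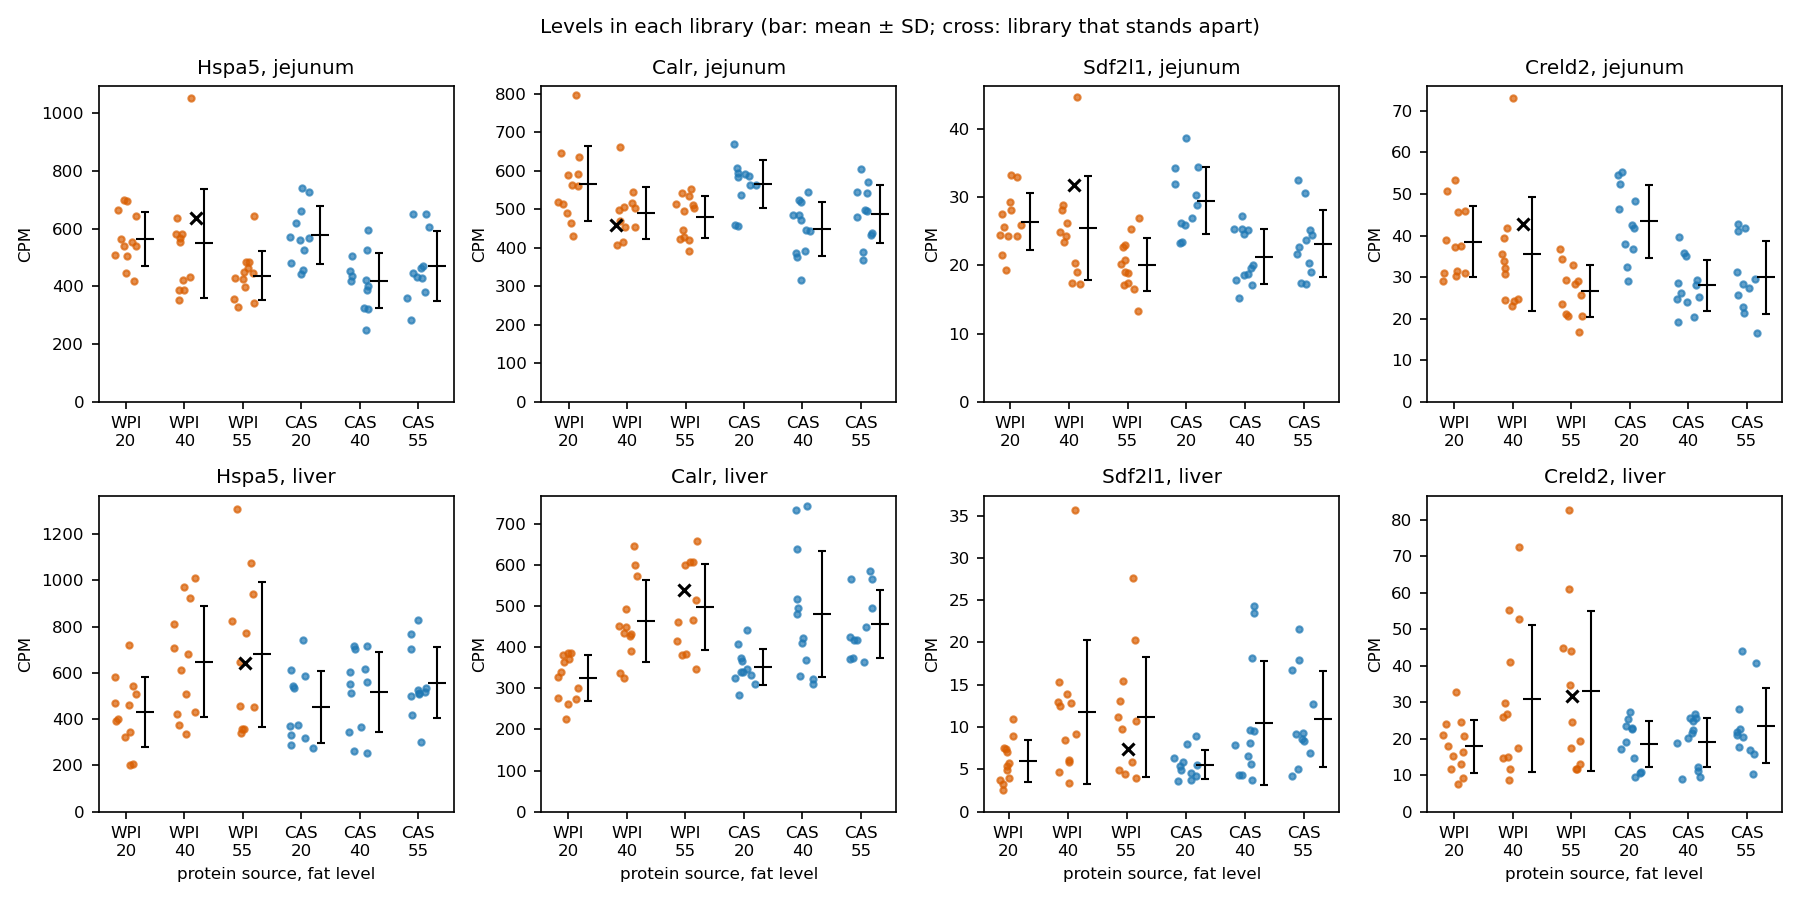
CPM (y axis) of Hspa5, Calr, Sdf2l1 and Creld2 in each jejunum (top) and liver (bottom) library on the 6 diets (x axis); bars give the mean ± SD of 11 or 12 mice and crosses mark the libraries that stand apart. Jejunum Creld2 averages 28.0 CPM on CAS FAT-40 and 43.5 CPM on CAS FAT-20, while liver Creld2 averages 33.1 CPM on WPI FAT-55 and 17.9 CPM on WPI FAT-20 with single mice up to 82.8 CPM.

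The estimated FAT-40 response in jejunum was higher on WPI than on CAS for all 10 genes, with a median difference of 0.32 on the log2 scale. No single difference passed in edgeR or DESeq2 (smallest edgeR adjusted p = 0.3, for Xbp1), and 6 genes had an unadjusted edgeR p under 0.05. Over all genes 2 were called for this difference (0.0118%). For FAT-55, 0 genes of the set passed in edgeR or DESeq2, 0 had an unadjusted p under 0.05 and 0.00% of all genes were called.

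Markers of other cell types moved in the same jejunum comparisons. All 7 smooth muscle markers were called lower for FAT-40 and FAT-55 on WPI and FAT-40 on CAS, and 5 of 7 for FAT-55 on CAS. On WPI their summed level was 346 to 1113 CPM at FAT-40 and 299 to 1280 CPM at FAT-55, against 765 to 3880 CPM at FAT-20. On CAS it was 422 to 839 CPM at FAT-40 and 332 to 1198 CPM at FAT-55, against 809 to 1521 CPM at FAT-20. Fat cell markers were called lower for 4 or 5 of 6 genes in each, and 5 of the 6 had medians below 1 CPM on every diet. Their sums spanned 52.0 to 206 CPM at FAT-40 and FAT-55, against 54.1 to 342 CPM at FAT-20. With the smooth muscle and fat cell scores as covariates, 1 gene was called lower for FAT-55 on WPI (Creld2, -0.74 on the log2 scale), 3 for FAT-40 on CAS (Xbp1 -0.37, Hyou1 -0.76 and Creld2 -0.85) and 4 for FAT-55 on CAS, beside 0.783%, 0.359% and 2.57% of all genes called lower in the same fits and order. Fewer genes of the set were called in these fits. The named genes are those that passed there, so their estimates, which lay farther from zero, do not describe the set.

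Plasma cells and Paneth cells secrete heavily and are rich in ER chaperones. Plasma cell markers were called lower for 0 of 7 genes with FAT-40 and 5 of 7 with FAT-55 on WPI, and for 2 of 7 and 6 of 7 on CAS. Their sums on WPI spanned 4446 to 10050 CPM at FAT-40 and 3648 to 6842 CPM at FAT-55, against 4359 to 14070 CPM at FAT-20. On CAS they spanned 7532 to 12040 CPM at FAT-40 and 985 to 12650 CPM at FAT-55, against 6424 to 21040 CPM at FAT-20. Paneth cell markers were called lower for 0 of 6 genes with FAT-40 and 6 of 6 with FAT-55 on WPI, and for 5 of 6 and 2 of 6 on CAS. Their sums on WPI spanned 2173 to 20910 CPM at FAT-40 and 4027 to 10320 CPM at FAT-55, against 1545 to 20680 CPM at FAT-20. On CAS they spanned 4755 to 13530 CPM at FAT-40 and 3260 to 25730 CPM at FAT-55, against 9106 to 24110 CPM at FAT-20. With the smooth muscle and fat cell covariates Dnajb9 did not pass for FAT-40 on WPI. With plasma, Paneth and goblet cell scores as covariates, 8 genes were called lower for FAT-40 on CAS, and 0 for FAT-55 on either protein, beside 2.07% of all genes for FAT-40 on CAS, 1.46% for FAT-55 on CAS and 4.78% for FAT-55 on WPI. Goblet cell markers were called lower for 1 or 2 of 6 genes in each comparison, and enterocyte markers were called higher for 2 to 4 of 6. The plasma cell score includes Derl3, a gene of ER-associated degradation, so it carries part of the ER RNA. The covariate fits cannot tell cell makeup from RNA per cell, and the part of cell makeup in the fall was not tested.

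The wider folding machinery of the jejunum had more genes called lower than higher in 3 of the 4 fat comparisons. Of 33 other ER folding factors tested, 3 fell and 6 rose for FAT-40 on WPI, 14 fell and 5 rose for FAT-55 on WPI, 17 fell and 3 rose for FAT-40 on CAS, and 13 fell and 5 rose for FAT-55 on CAS. These were 9.09%, 42.4%, 51.5% and 39.4% of the list called lower, beside 13.04%, 16.6%, 12.4% and 13.3% of all genes. Of all genes, 12.7%, 14.2%, 12.7% and 14.4% were called higher in the same order. Among those that fell were Ssr1 and Ddost, subunits of the translocon-associated and oligosaccharyltransferase complexes (log2 fold changes -0.28 and -0.27 for FAT-40 on CAS), and Txndc5, a disulfide isomerase (-0.31 for FAT-55 on WPI and -0.45 for FAT-55 on CAS). Ero1l, the oxidase that recharges disulfide isomerases, rose in all 4 comparisons by 0.30 to 0.50 on the log2 scale. In ER-associated degradation (20 genes), 0, 3, 4 and 4 genes fell and 4, 1, 2 and 2 rose, in the order FAT-40 and FAT-55 on WPI, then FAT-40 and FAT-55 on CAS. Derl3, which is also in the plasma cell list, fell by log2 fold changes of -0.85 for FAT-55 on WPI and of -0.73 and -1.22 for FAT-40 and FAT-55 on CAS.

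Genes around the stress sensors were called in both directions, and the counts of the smaller lists are descriptions beside the shares of all genes just given. Of the 10 sensors and their regulators, Atf6b fell and Creb3l3, an ER-bound factor of lipid metabolism, rose in all 4 comparisons, with log2 fold changes for FAT-55 on WPI of -0.26 and 0.58. In the PERK and ATF4 branch (16 genes), 0, 3, 4 and 5 genes fell and 2, 3, 1 and 2 rose in the same order. The serine synthesis genes Psat1 and Phgdh and the asparagine synthetase gene Asns fell for FAT-40 on CAS, by log2 fold changes of -0.94, -0.63 and -0.80. Of 20 cytosolic and mitochondrial heat shock genes, 2, 2, 2 and 1 fell and 3, 3, 2 and 4 rose, among them Dnajb1, an Hsp40, which rose by 0.32 to 0.42 on the log2 scale in all 4. Of 16 clock genes 1, 2, 1 and 1 rose and 0, 0, 0 and 1 fell, and of 13 genes known to follow feeding and fasting in liver 0, 1, 1 and 1 rose and 4, 4, 2 and 3 fell.

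In liver most estimates of the set went the other way. More genes were called higher on WPI than on CAS, but such counts are not a test of the proteins against each other. The edgeR test of the difference of responses called 0 genes of the set for FAT-40 and 1 for FAT-55 (Xbp1). That call was lost in stem sums and with a random effect for stem. On WPI, 4 of 10 genes rose at FAT-40 against FAT-20 and 7 of 10 rose at FAT-55. On CAS, 3 of 10 rose at each level, and Xbp1 fell at FAT-55. The median log2 fold change of the set was 0.56 for FAT-40 and 0.56 for FAT-55 on WPI, and 0.16 for FAT-40 and 0.32 for FAT-55 on CAS, beside medians over all genes between -0.01 and 0.01. Of all genes, 4.19% were called higher for FAT-40 and 14.6% for FAT-55 on WPI, and 15.8% and 22.6% for FAT-40 and FAT-55 on CAS. On CAS FAT-55, 20.7% were called lower. The 3 of 10 called higher at each level on CAS are not far from the shares of all genes and are not read as a result of the set.

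Calr and Pdia6 rose in all 4 liver comparisons. Calr had 347, 490.4 and 658 CPM (lowest, median, highest) on WPI FAT-55, against 226, 333 and 387 CPM on WPI FAT-20. All 12 FAT-55 mice lay above the FAT-20 median with a small overlap of the ranges, and the log2 fold change was 0.61 ± 0.12 (edgeR adjusted p = 0.0001). On CAS FAT-40 Calr had 312, 451 and 742 CPM, against 283, 341 and 442 CPM on CAS FAT-20 (0.44 ± 0.12, edgeR adjusted p = 0.0046). Pdia6 had 121, 169 and 222 CPM on WPI FAT-55 against 75.9, 117 and 137 CPM on WPI FAT-20 (0.57 ± 0.12, edgeR adjusted p = 0.00028), and again every FAT-55 mouse exceeded the FAT-20 median. On CAS FAT-40 the Pdia6 log2 fold change was 0.48 ± 0.12 (edgeR adjusted p = 0.002), and all 12 mice exceeded the FAT-20 median there too.

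Sdf2l1 also rose in all 4 liver comparisons, with the largest fold changes and the widest spread of the set. It had 3.99, 10.3 and 27.6 CPM (lowest, median, highest) on WPI FAT-55 and 3.37, 10.9 and 35.7 CPM on WPI FAT-40, against 2.57, 5.61 and 10.95 CPM on WPI FAT-20. The log2 fold changes were 0.91 ± 0.32 (edgeR adjusted p = 0.025) and 0.98 ± 0.32 (edgeR adjusted p = 0.046), and the ranges overlapped broadly, with single mice at the higher fat levels within the FAT-20 range. On CAS the log2 fold changes were 0.91 for FAT-40 and 0.97 for FAT-55, both called. All 4 of these calls were lost with a random effect for stem (limma adjusted p = 0.28 and 0.11 for FAT-40 and FAT-55 on WPI, 0.22 and 0.071 on CAS) and in sums over stems (edgeR adjusted p = 0.32 and 0.15 on WPI, 0.16 and 0.091 on CAS).

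Hspa5 rose in liver only in the comparison of FAT-55 with FAT-20 on WPI among the 4 tested. It had 340.3, 645 and 1310 CPM (lowest, median, highest) on WPI FAT-55, against 203, 431 and 723 CPM on WPI FAT-20, a log2 fold change of 0.66 ± 0.21 (edgeR adjusted p = 0.016) with 9 of 12 FAT-55 mice above the FAT-20 median. That call was lost in stem sums (edgeR adjusted p = 0.093) and with the random effect for stem (limma adjusted p = 0.08). For FAT-40 on WPI its log2 fold change of 0.60 missed the threshold (edgeR adjusted p = 0.077), and on CAS it was 0.19 and 0.29 for FAT-40 and FAT-55. Creld2 was called in the same comparison, with 11.7, 28.1 and 82.8 CPM on WPI FAT-55 against 7.50, 17.3 and 32.9 CPM on WPI FAT-20 (0.88 ± 0.29, edgeR adjusted p = 0.017). Pdia4 rose by 0.56 ± 0.15 on the log2 scale for FAT-55 on WPI (edgeR adjusted p = 0.0037), and Hsp90b1 rose by 0.39 ± 0.098 there (edgeR adjusted p = 0.0017) and by 0.36 for FAT-40 on WPI. Hyou1 had log2 fold changes of 0.64 and 0.54 for FAT-40 and FAT-55 on WPI, which did not pass (edgeR adjusted p = 0.11 and 0.088).

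Xbp1 was the exception on CAS. It had 109.8, 143 and 169 CPM (lowest, median, highest) on CAS FAT-55, against 131, 157 and 232 CPM on CAS FAT-20, and fell by 0.27 ± 0.10 on the log2 scale (edgeR adjusted p = 0.027). This fall was not called in stem sums (edgeR adjusted p = 0.12) or with the random effect for stem (limma adjusted p = 0.082). In the main fit 20.7% of all genes were called lower there. On WPI the Xbp1 log2 fold change for FAT-55 was 0.18 (edgeR adjusted p = 0.18), with 134, 163 and 220 CPM at FAT-55 against 108, 147 and 174 CPM at FAT-20. The difference between the 2 responses was itself called, at 0.45 ± 0.14 (edgeR adjusted p = 0.042), in a comparison where 6.82% of all genes were called in either direction. The same difference for FAT-40 was 0.45 with an edgeR adjusted p of 0.075. All 10 genes had a positive difference for FAT-40, none of them called, and 1.49% of all genes were called there in either direction. The call of the Xbp1 difference for FAT-55 was lost without the filter on low counts (adjusted p = 0.079), in sums over stems (0.26) and with a random effect for stem (0.16), with estimates of 0.43 to 0.45 in edgeR and limma.

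The liver calls depended on how stems were treated. With libraries summed over the 4 stems of each diet, 5 of the 21 calls of the set in liver passed: Calr, Hsp90b1, Pdia6 and Creld2 for FAT-55 on WPI, with log2 fold changes of 0.64, 0.42, 0.60 and 0.91, and Dnajb9 for WPI against CAS averaged over fat. In that fit 7.69% of all genes were called higher for FAT-55 on WPI. With a random effect for stem 11 of 21 passed, among them Calr and Pdia6 in all 4 fat comparisons. For FAT-55 on WPI that fit called 4 genes of the set higher, Calr, Hsp90b1, Pdia6 and Pdia4, beside 10.4% of all genes. Creld2 did not pass there (limma adjusted p = 0.15), and Pdia4 did not pass in stem sums (edgeR adjusted p = 0.067). In jejunum 20 of 24 calls passed in stem sums and 22 of 24 with the random effect. Stem sums lost Calr, Hsp90b1 and Pdia6 for FAT-55 on WPI (edgeR adjusted p = 0.11, 0.053 and 0.055) and Hsp90b1 for FAT-55 on CAS (0.064). The random effect lost Calr and Hspa5 for FAT-55 on WPI (limma adjusted p = 0.058 and 0.056). Leaving out the library that stands apart kept all 24 jejunum and all 21 liver calls. Markers of plasma cells summed to at most 42.9 CPM in any liver library. One WPI FAT-40 liver library held 980 CPM of exocrine pancreas markers, and none of the 19 called fold changes of the set between 2 diets in liver moved by over 1.5 times when any 1 library was left out. The other 2 liver calls, Dnajb9 averaged over fat and the Xbp1 difference of responses, were not recomputed in this way.

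On WPI, other ER folding factors of the liver were called higher more often than all genes were. Of 33 other ER folding factors, 15 rose and 0 fell for FAT-40 on WPI, 14 rose and 0 fell for FAT-55 on WPI, 8 rose and 2 fell for FAT-40 on CAS, and 7 rose and 3 fell for FAT-55 on CAS. The shares of the list called higher were 45.5%, 42.4%, 24.2% and 21.2%, beside 4.19%, 14.6%, 15.8% and 22.6% of all genes, so the count for FAT-55 on CAS is near that of all genes. Sec61b, a subunit of the translocation channel, rose by 0.39, 0.42 and 0.39 on the log2 scale in the first 3 of these, and Ssr1 rose by 0.34, 0.32 and 0.28. Ddost rose by 0.32 in both WPI comparisons. On CAS FAT-55 the J-domain reductase gene Dnajc10 rose by 0.35 and Pdia5 fell by 0.61. In ER-associated degradation (20 genes) the counts were 6 up and 0 down for FAT-40 and 5 up and 2 down for FAT-55 on WPI, and 2 up with 4 and 5 down for FAT-40 and FAT-55 on CAS. Of all genes, 2.35% and 11.99% were called lower for FAT-40 and FAT-55 on WPI, and 14.4% and 20.7% on CAS. Edem1, which picks glycoproteins for degradation, rose by 0.40 for FAT-40 on CAS and by 0.29 for FAT-55 on WPI, and Derl3 rose by 2.59 ± 0.43 for FAT-55 on WPI.

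In the PERK and ATF4 branch the liver shares called lower lay near those of all genes except for FAT-40 on CAS. Of its 15 tested genes, 0 rose for FAT-40 or FAT-55 on WPI and for FAT-40 on CAS, 2 rose for FAT-55 on CAS, and 0, 2, 5 and 4 fell in that order. Of all genes, 4.19%, 14.6%, 15.8% and 22.6% were called higher in the same order. The shares called lower for FAT-55 were 13.3% on WPI and 26.7% on CAS, beside 11.99% and 20.7% of all genes. For FAT-40 on CAS the share called lower was 33.3%, beside 14.4% of all genes. With 15 genes, these counts are descriptions and are not read as a result of the list. Asns fell by log2 fold changes of -1.83 for FAT-55 on WPI and of -2.25 and -2.86 for FAT-40 and FAT-55 on CAS. Ppp1r15a, which reverses the translational block set by PERK, fell by 0.36, 0.38 and 0.56 in the same 3 comparisons, and Atf4 fell by 0.42 for FAT-55 on CAS. Among the 9 tested sensors and regulators, Atf6b rose in all 4 comparisons, by 0.44 for FAT-55 on WPI. Of 20 cytosolic and mitochondrial heat shock genes, 0 and 3 were called higher for FAT-40 and FAT-55 on WPI, and 1 and 4 on CAS. Of 16 clock genes 0 rose in any of the 4 comparisons, while 0 and 1 fell on WPI and 0 and 3 on CAS. Of 14 genes that follow feeding and fasting, 3 and 2 rose with 0 and 3 falling on WPI, and 5 and 4 rose with 5 and 4 falling on CAS.

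Few genes of the set were called for the protein source by itself. With 10 genes, counts this near the shares of all genes are not read as a result of the set. In jejunum 0 of 10 genes were called for WPI against CAS averaged over fat, by edgeR or DESeq2, and 0 had an unadjusted edgeR p under 0.05, while 15.3% of all genes were called. At each fat level taken singly 0 were called by either tool as well, with 1, 5 and 0 genes (FAT-20, FAT-40, FAT-55) at an unadjusted p under 0.05 and 6.23%, 0.571% and 3.70% of all genes called. The 5 at FAT-40 had higher estimates on WPI: Hspa5 had 352, 561 and 1053 CPM (lowest, median, highest) on WPI FAT-40 against 248, 422 and 596 CPM on CAS FAT-40, a log2 fold change of 0.39 ± 0.13 (edgeR adjusted p = 0.18).

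In liver Dnajb9 was the gene called for protein source. Averaged over fat it rose by 0.34 ± 0.087 on the log2 scale on WPI against CAS (edgeR adjusted p = 0.0039), where 7.10% of all genes were called higher. At FAT-40 it had 49.5, 73.7 and 126 CPM (lowest, median, highest) on WPI, against 38.5, 51.7 and 76.5 CPM on CAS, and 11 of 12 WPI mice lay above the CAS median. That log2 fold change was 0.53 ± 0.15 (edgeR adjusted p = 0.015), with 3.85% of all genes called higher. The averaged call passed in stem sums (adjusted p = 0.026) and with the random effect for stem (0.032), and the call at FAT-40 did not (0.092 and 0.088). At FAT-20 and FAT-55, 0 genes of the set were called by edgeR or DESeq2, with 1 and 2 at an unadjusted edgeR p under 0.05 and Dnajb9 at 0.13 and 0.35, while 0.512% and 14.5% of all genes were called.

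In hypothalamus 0 genes of the set were called for WPI against CAS, averaged or at any fat level, by limma on all libraries or by edgeR on the recovered reads. At an unadjusted limma p under 0.05 there was 1 gene averaged over fat, and there were 2, 0 and 0 genes from the lowest to the highest fat level. The shares of all genes called were 2.15% averaged, and 1.01% (FAT-20), 0.00% (FAT-40) and 5.92% (FAT-55) at single fat levels. Without the libraries that stand apart, Xbp1 was called lower on WPI than on CAS at FAT-55, by a log2 fold change of -0.26 ± 0.06 (limma adjusted p = 0.0013), beside 18.1% of all genes called in either direction.

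In hypothalamus the fat response differed with and without the libraries that stand apart. Values there are reads divided by the authors' size factors, called scaled reads here, and fold changes are on the log2(value + 1) scale by limma. On WPI, Dnajb9 fell and Hyou1 rose for FAT-40, and Xbp1 fell and Hyou1 rose for FAT-55. Of all genes 38.0% were called higher and 14.6% lower for FAT-40, and 29.5% and 5.84% for FAT-55, with medians over all genes of 0.12 and 0.10 on the log2 scale. On CAS limma called 0 genes of the set, with 1 and 2 at an unadjusted p under 0.05, beside 0.236% of all genes called for FAT-40 and 2.33% for FAT-55. edgeR on the recovered reads called 1 gene in each, Dnajb9 at log2 fold changes of -1.11 and -1.11 (edgeR adjusted p = 0.016 and 0.013), beside 10.8% and 16.7% of all genes called in either direction. Without the libraries that stand apart the Dnajb9 values were -0.13 and -0.15 (limma adjusted p = 0.74 and 0.42). The differences between the WPI and CAS responses gave 0 calls in the set by limma or edgeR, with 0 and 1 at an unadjusted limma p under 0.05, beside 0.0742% and 3.50% of all genes called. Without the libraries that stand apart 1 gene was called for the FAT-55 difference, Calr, whose response was higher on WPI than on CAS by 0.34 ± 0.079 (limma adjusted p = 0.0026), beside 10.2% of all genes called in either direction.

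Dnajb9 on WPI FAT-40 had 627, 760.3 and 842 scaled reads (lowest, median, highest), against 662, 1243 and 4679 on WPI FAT-20. All 11 FAT-40 mice lay below the FAT-20 median, and the log2 fold change was -0.93 ± 0.29 (limma adjusted p = 0.0075). Among the libraries that stand apart Dnajb9 ran from 1512 to 5050 scaled reads, and in the other 57 libraries from 577 to 1243. The 2 sets did not overlap, and without the 10 libraries the log2 fold change was -0.06 ± 0.092 (limma adjusted p = 0.74).

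Hyou1 went the other way, with 2711, 3021 and 3358 scaled reads on WPI FAT-40 against 1109, 2412 and 3051 on WPI FAT-20. Its log2 fold change was 0.51 ± 0.12 with all libraries (limma adjusted p = 0.0013) and 0.12 ± 0.061 without the 10 (limma adjusted p = 0.23). Across the libraries that stand apart Hyou1 ran from 1109 to 2319 scaled reads, below the 2412 to 3526 of the others, while Calr ran from 4807 to 7436, overlapping the 3772 to 5661 of the others. For FAT-55 on WPI Hyou1 was called in both fits, at 0.46 with all libraries and 0.18 without the 10. Xbp1 had 1096, 1274 and 2480 scaled reads on WPI FAT-55 against 1314, 1521 and 3252 on WPI FAT-20, with 9 of 12 FAT-55 mice below the FAT-20 median. It was called lower with all libraries, by -0.38 ± 0.12 (limma adjusted p = 0.011), and was at -0.18 (limma adjusted p = 0.074) without the 10.

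**Figure D3:**
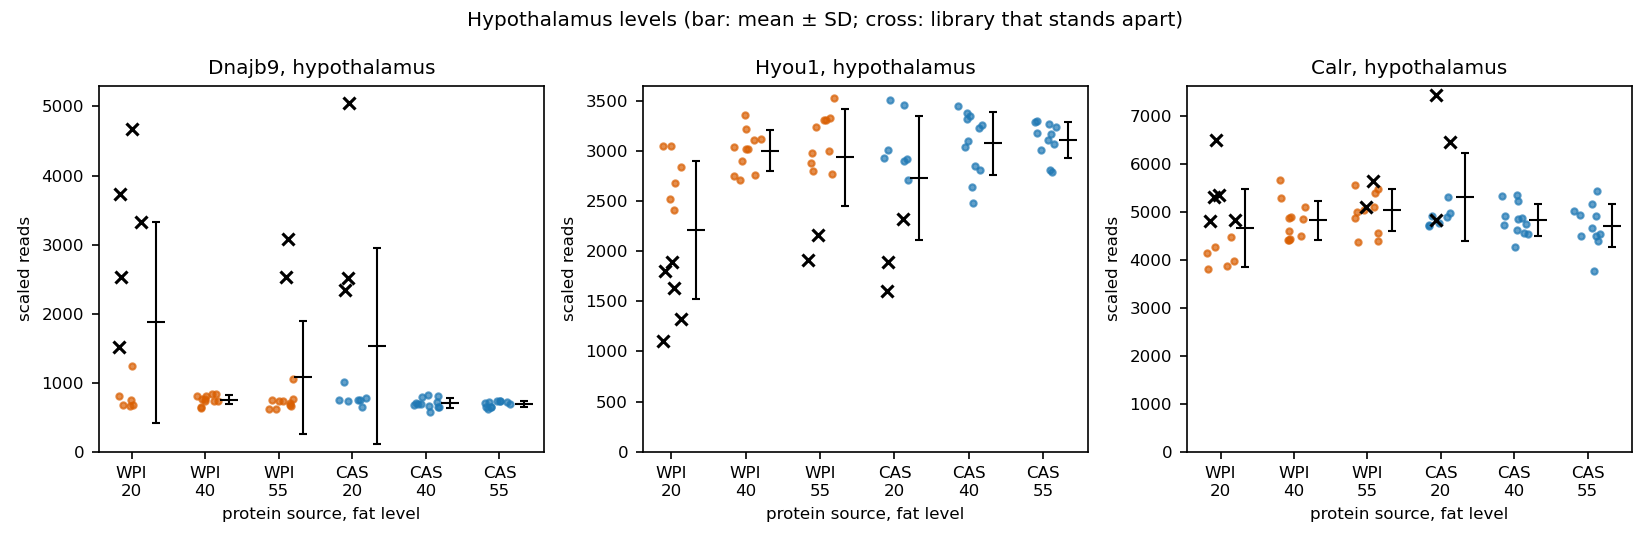
Scaled reads (y axis) of Dnajb9, Hyou1 and Calr in each hypothalamus library on the 6 diets (x axis); bars give mean ± SD of 10 to 12 mice and crosses mark the 10 libraries that stand apart. The crosses hold every Dnajb9 value above 1243 scaled reads, and the circles of the 6 diets overlap throughout.

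The slope of gene level on GC content, in log2 units per 10 percentage points, ran from -0.45 to -0.07 in the 10 libraries and from -0.11 to 0.24 in the others. With the trend of each library on GC content and gene length removed, 6 genes of the set were called for FAT-40 on WPI, Dnajb9 at -0.58, Xbp1 at -0.25, Pdia6 at -0.23, Calr at 0.14, Hyou1 at 0.15 and Hsp90b1 at 0.20. In that fit 33.2% of all genes were called in either direction. What made these libraries stand apart was not tested.

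Without those libraries some genes of the set were called higher on WPI. That fit left out mice of WPI FAT-20, the reference, took mice as independent and was not repeated over stems. For FAT-40, Calr (0.24 ± 0.057, limma adjusted p = 0.011), Hsp90b1 (0.24 ± 0.068, 0.029) and Hspa5 (0.19 ± 0.057, 0.045) were called higher on the log2 scale, beside 4.63% of all genes called in either direction. For FAT-55, Calr (0.28 ± 0.058, limma adjusted p = 0.00032), Hspa5 (0.18), Pdia6 (0.18) and Hyou1 (0.18) were called higher, beside 18.5% of all genes called in either direction. On CAS 0 were called in that fit, beside 0.189% and 0.951% of all genes called for FAT-40 and FAT-55. With values averaged over stems none of the 4 hypothalamus calls from all libraries passed. Of 33 other ER folding factors, 5 rose and 12 fell for FAT-40 on WPI with all libraries, and 9 of 10 sensors and regulators rose, among them Atf6b (0.38) and Eif2ak3 (0.32), which encodes PERK. These list counts come from the fit with the libraries that stand apart, where 38.0% of all genes were called higher and 14.6% lower.

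Within a diet the genes of the set varied together from mouse to mouse. After diet means were removed, the median Pearson r over the 45 pairs was 0.72 in jejunum (70 libraries), 0.79 in liver (70) and 0.68 in hypothalamus (67). Hspa5 and Hyou1 were the closest pair in jejunum (r = 0.95) and liver (r = 0.98). These are descriptions over libraries that share depth and preparation. Dnajb9 stood outside in jejunum, with a median r of 0.24 to the other genes and -0.11 with Pdia6, and was closer in liver at 0.58. Xbp1 had median r of 0.55 in jejunum and 0.48 in liver. In hypothalamus Hyou1 ran against the others (median r = -0.63, and -0.87 with Dnajb9), but without the 10 libraries that stand apart its median r was 0.11 and the median over all pairs 0.36.

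**Figure D4:**
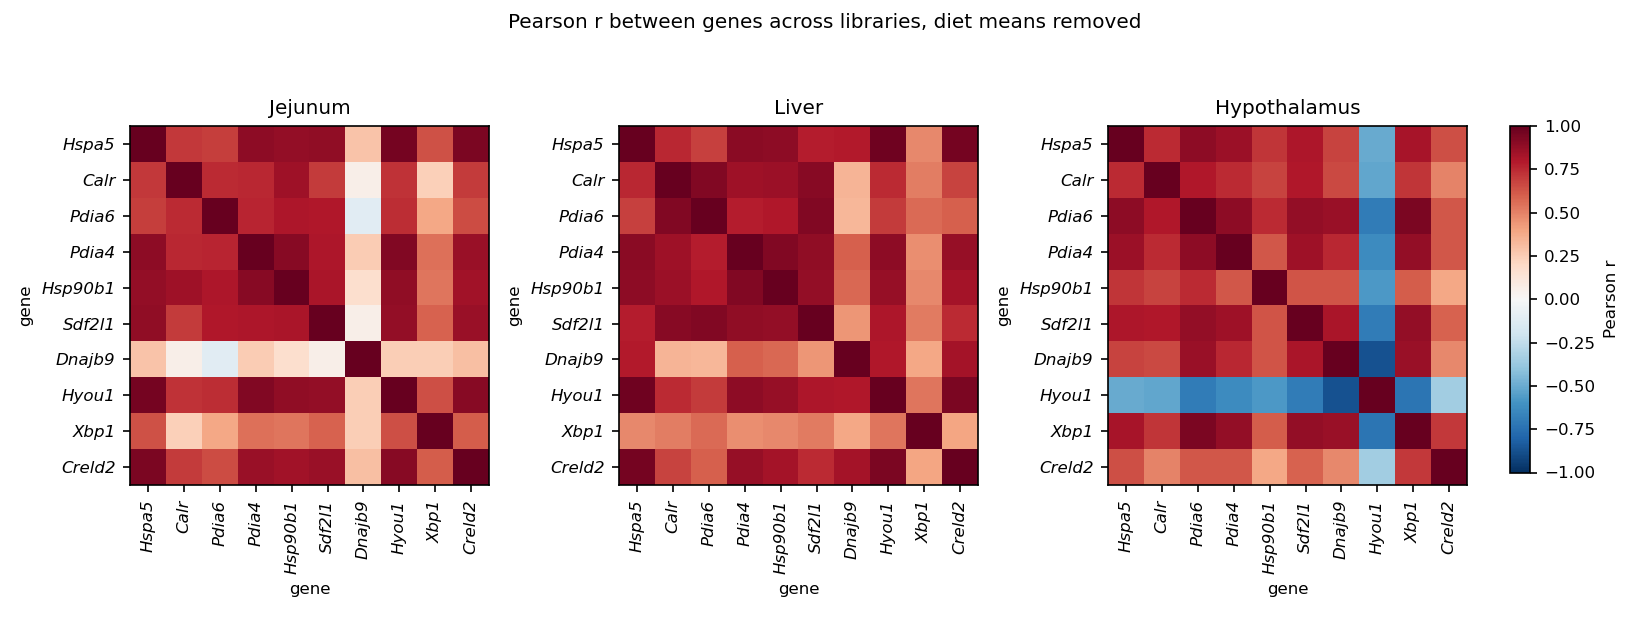
Pearson r (colour, -1 to 1) of log2 levels between each pair of genes (rows and columns) across 70 jejunum, 70 liver and 67 hypothalamus libraries after diet means were removed. Hspa5, Pdia4, Hsp90b1, Hyou1 and Creld2 form a dark block in jejunum and liver, Dnajb9 is pale in jejunum, and Hyou1 is blue against every other gene in hypothalamus.

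Outside the set, the genes whose levels were most like Hspa5 across mice were mostly ER factors in gut and liver. In jejunum they were Manf (r = 0.92), an ER protein secreted under stress, Dnajb11 (0.87) and Dnajc3 (0.83), which are J-domain cochaperones, and Hsph1 (0.81) and Chordc1 (0.80), which work with cytosolic heat shock proteins. In liver they were Manf (0.98), Syvn1 (0.93), the ubiquitin ligase of ER-associated degradation, Slc35b1 (0.89), an ATP carrier of the ER membrane, Ubxn4 (0.86) and Dnajb11 (0.86). In hypothalamus over all libraries they were Ldha, Hacd3, Tubb2b, Morf4l2 and Farsb, all between 0.81 and 0.82. Without the libraries that stand apart they were Hsph1 (0.74), Mettl16 (0.69), Rrad (0.64), Mlec (0.64), a carbohydrate-binding ER protein, and Lman2 (0.63), a cargo lectin. Cytosolic and mitochondrial heat shock genes had a median r with Hspa5 of 0.62 in jejunum and 0.58 in liver over 20 genes. Clock genes had medians of -0.07 and -0.25 over 16 genes, from -0.55 for Per3 to 0.46 for Clock in liver.

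Mice with high ER chaperone RNA in one tissue tended to have it in another. Over 70 mice with both tissues, Creld2 levels in jejunum and liver correlated with Pearson's r = 0.68 and Spearman's rho = 0.68 after diet means were removed, and Hspa5 with r = 0.61 and rho = 0.60. Both had the smallest p that 100000 two-sided permutations of mice within diet can give (1e-05, adjusted p = 3.8e-05 over 30 relations). Without the 2 mice farthest from the median jejunum level r was 0.67 for Creld2 and 0.60 for Hspa5. For jejunum and liver 9 of 10 genes passed, with r from 0.34 to 0.68 and Dnajb9 the exception (r = 0.18, permutation adjusted p = 0.17). Between liver and hypothalamus 7 of 10 passed over 63 mice, among them Hspa5 (r = 0.57, rho = 0.70), Creld2 (r = 0.52, rho = 0.59) and Calr (r = 0.49, rho = 0.60), all at a permutation adjusted p of 3.8e-05. Dnajb9, Hyou1 and Xbp1 did not pass there. Between jejunum and hypothalamus 5 of 10 passed by Pearson's r and 7 of 10 by Spearman's rho, with Creld2 (0.46) and Hspa5 (0.45) the highest r. All 21 relations that passed by Pearson's r were positive, and all 21 were positive without the 2 farthest mice, without mice with a library that stands apart, and within stems.

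As a background, the same r was computed for every gene tested in both tissues, with no test. The median over all genes was 0.09 for jejunum and liver, -0.01 for jejunum and hypothalamus and 0.01 for liver and hypothalamus, where the medians of the set were 0.51, 0.26 and 0.39. An r as high as the lowest of the set that passed (0.34, 0.27 and 0.32) was reached by 8.72% of all genes for jejunum and liver, 2.80% for jejunum and hypothalamus and 2.31% for liver and hypothalamus. Mice of one stem are not known to be independent, so r was also taken after removing stem means, with mice permuted only within stems (100000 two-sided permutations, adjusted over 30). In that test 7 of 10 genes passed for jejunum and liver, 4 for jejunum and hypothalamus and 4 for liver and hypothalamus. Hspa5, Creld2 and Pdia4 passed in all 3 pairs of tissues, with r within stems of 0.72, 0.75 and 0.55 for jejunum and liver and of 0.51, 0.59 and 0.58 for liver and hypothalamus. Calr did not pass in any, at 0.10 within stems for liver and hypothalamus against 0.69 between stem means (permutation adjusted p within stems = 0.52). Hsp90b1 was at 0.16 within and 0.55 between stems for the same tissues (permutation adjusted p within stems = 0.29). Within stems the median r over the 10 genes was 0.51 for jejunum and liver, 0.27 for jejunum and hypothalamus and 0.20 for liver and hypothalamus.

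**Figure D5:**
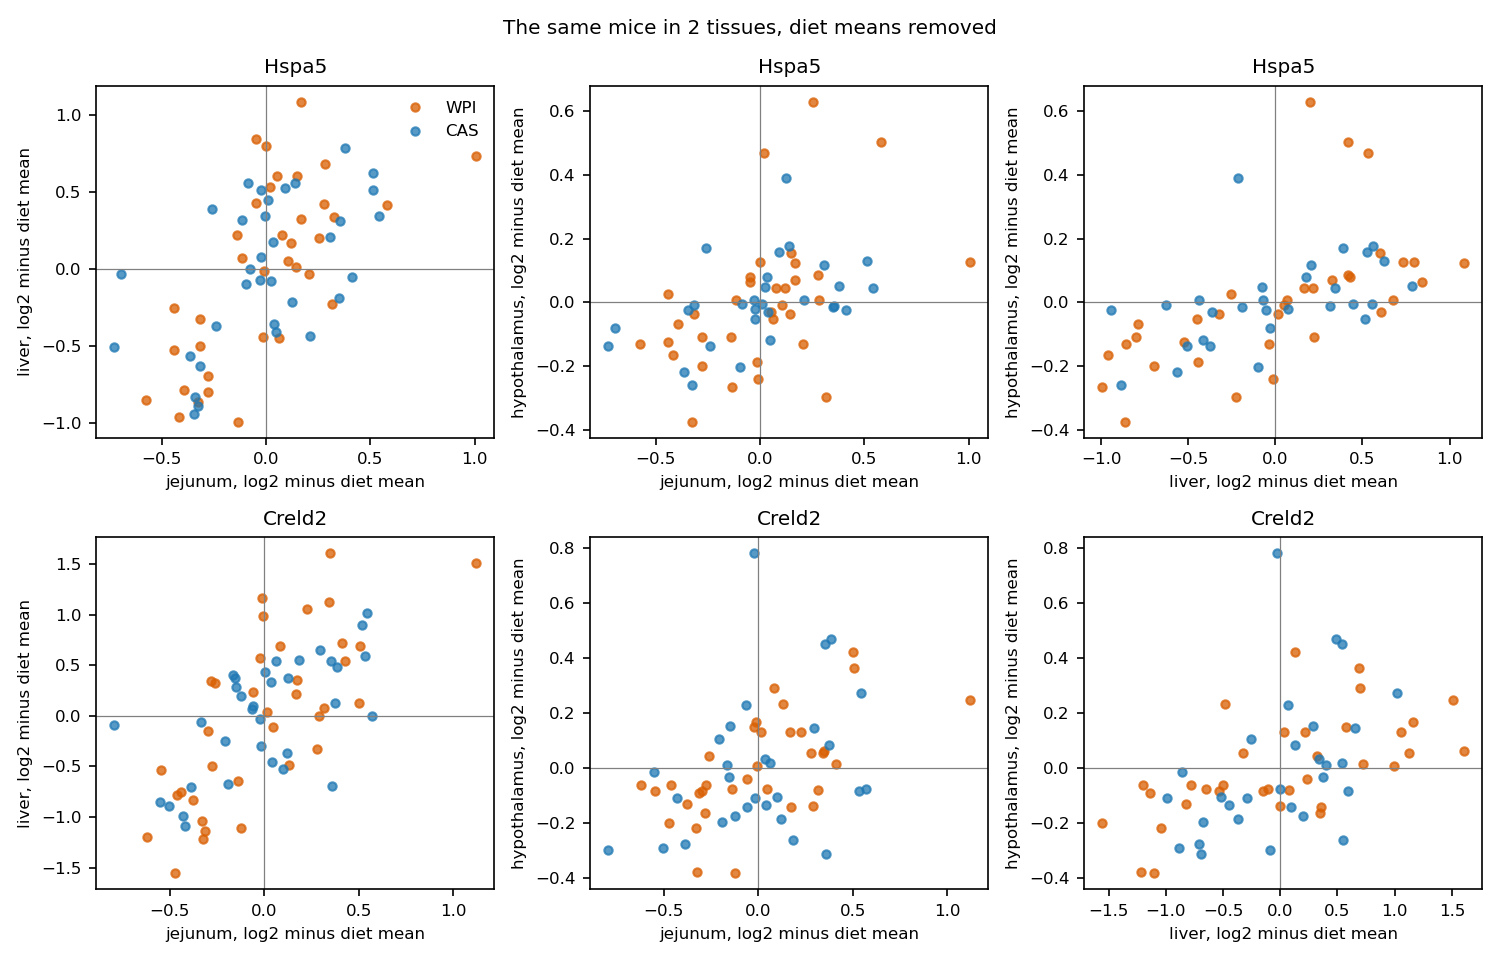
Log2 level of Hspa5 (top) and Creld2 (bottom) in one tissue against another of the same mouse, as the deviation from the diet mean in both tissues, for jejunum and liver (70 mice), jejunum and hypothalamus (63) and liver and hypothalamus (63). The jejunum and liver clouds slope upward with r = 0.61 for Hspa5 and 0.68 for Creld2.

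The liver and jejunum responses to fat were therefore compared within mice, as the difference of the liver and jejunum log2 level of each mouse between diets. The difference was positive in 38 of 40 gene and comparison pairs, and 34 of 40 passed a permutation test of the diet labels (100000 permutations, two-sided, adjusted over 40). The median over the 10 genes was 0.69 for FAT-40 and 0.85 for FAT-55 on WPI, and 0.66 and 0.63 for FAT-40 and FAT-55 on CAS, on the log2 scale. Creld2 for FAT-55 on WPI had the largest value, 1.26 ± 0.26 (SE), and Sdf2l1 for FAT-55 on CAS reached 1.21. The pairs that did not pass were Dnajb9 in all 4 comparisons and Xbp1 in both CAS comparisons. Over stem means, with 4 stems a diet, 38 of 40 differences were positive and 21 of 40 did not overlap between diets. No exact permutation p can be below 0.029 in that design, and none of the 40 passed after adjustment (smallest 0.055).

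The same difference was taken for all 13965 genes tested in both tissues, to show how often it occurs outside the set. Its median over all genes lay within 0.01 of zero in the 4 comparisons. With limma on the difference per mouse and the adjustment made over all genes, 33 of the 40 values of the set were called higher, 8 and 9 of 10 for FAT-40 and FAT-55 on WPI and 8 and 8 on CAS, beside 8.14%, 14.6%, 17.5% and 23.3% of all genes. Xbp1 for FAT-40 on WPI, which passed the permutation test, was not called there (0.24 ± 0.099, limma adjusted p = 0.087). With limma on stem means 26 of 40 were called higher, 3 and 8 on WPI and 7 and 8 on CAS, beside 3.14%, 9.25%, 12.9% and 19.8% of all genes. Of the 21 values whose stem means did not overlap, all higher, 6 and 6 were on WPI and 4 and 5 on CAS, where 7.48%, 11.97%, 12.4% and 15.8% of all genes did not overlap in the same direction.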

How the data were processed

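Jejunum and liver tables hold whole read counts per gene as deposited by the authors, and the hypothalamus table holds a signal, read counts that the authors had divided by a size factor per library. Multiplying each library by the worth of 1 read gave whole reads (within 0.05) for 100% of positive values, and the size factors ran from 0.712 to 1.08. The submitters' processing notes name cutadapt, FastQC, Trim Galore 0.61, STAR, DESeq2 1.24.0 and GRCm38. RNA came from RNeasy kits for jejunum and liver and from Tri-reagent for hypothalamus, per the labels' protocols. Multi-mapping, ambiguous, unassigned and unmapped entries (8.00%, 5.23%, 6.34% and 3.45% in jejunum, 7.71%, 5.20%, 5.60% and 5.30% in liver) were left out. No columns were identical.

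Counts were tested with edgeR 4.0.16 (TMM, filterByExpr with a minimum count of 10, quasi-likelihood test). Hypothalamus values were tested with limma 3.58.1 (trend, log2(value + 1), values of at least 10 in at least 10 libraries), since the count test planned for it does not suit scaled values. P-values were adjusted by Benjamini-Hochberg over all genes of a tissue and comparison. There were 10 comparisons per tissue: WPI against CAS averaged and at each fat level, FAT-40 and FAT-55 against FAT-20 on each protein, and the difference of those responses. DESeq2 1.42.0, other scalings, filters and pseudocounts, marker scores as covariates, identifier stems (sums, means or a random effect) and single left-out libraries were alternatives. The fits were tested on simulated data. Correlations and permutations used scipy 1.17.1 and numpy 2.4.6.

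The genes and lists were chosen with earlier results of these data known. Beside the 10 genes, the text names from each list up to 3 genes per tissue and comparison with the smallest adjusted p, and the 5 genes most correlated with Hspa5 per tissue. The within-mouse comparison of liver and jejunum, its limma fit over all genes, the fits without libraries that stand apart and the within-stem correlations and permutations were added after the data were seen. The replicates are separate mice by their identifiers, which were used as printed to pair tissues. On CAS FAT-20 the sample titles of jejunum and liver differ in a library number, so a pair may join different mice. A stem is spelled differently in the hypothalamus labels, so its mice are missing from the pairs with hypothalamus.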

Additional observations from a re-analysis of the deposited data

Results flagged for a closer look

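One hypothalamus library, CAS FAT-20 replicate 6, lay far above the other 9 of its diet for 7 of the 10 genes by Dixon's test. It held 7091 scaled reads of Hspa5, 3860 of Pdia6, 1020 of Pdia4, 667 of Sdf2l1, 5050 of Dnajb9, 3078 of Xbp1 and 441 of Creld2. The test was run for each of the 10 genes on the 10 mice of that diet, since the other groups hold more than 10 mice. Chance flags about 1 in 20 independent tests. These tests are not independent, as the genes vary together and all 7 flags fall on the same library. The library is one of the 10 that stand apart over all genes.

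The FAT-55 response of liver Xbp1 was higher on WPI than on CAS, by 0.45 on the log2 scale (0.446), in the edgeR test of the difference.

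The change with fat differed between liver and jejunum of the same mice, by permutation, in 34 values (liver minus jejunum, log2 scale). For FAT-40 on CAS they were 0.659 for Hspa5, 0.738 for Calr, 0.863 for Pdia6, 0.659 for Pdia4, 0.512 for Hsp90b1, 1.155 for Sdf2l1, 0.717 for Hyou1 and 0.657 for Creld2. For FAT-55 on CAS they were 0.644 for Hspa5, 0.590 for Calr, 0.617 for Pdia6, 0.819 for Pdia4, 0.439 for Hsp90b1, 1.212 for Sdf2l1, 0.824 for Hyou1 and 0.886 for Creld2. For FAT-40 on WPI they were 0.681 for Hspa5, 0.706 for Calr, 0.734 for Pdia6, 0.614 for Pdia4, 0.424 for Hsp90b1, 0.908 for Sdf2l1, 0.726 for Hyou1, 0.235 for Xbp1 and 0.784 for Creld2. For FAT-55 on WPI they were 0.992 for Hspa5, 0.838 for Calr, 0.854 for Pdia6, 0.851 for Pdia4, 0.660 for Hsp90b1, 1.186 for Sdf2l1, 0.874 for Hyou1, 0.324 for Xbp1 and 1.260 for Creld2. Over stem means none passed after adjustment by the exact permutation test. With limma over all genes 33 of 40 passed per mouse and 26 of 40 over stem means.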

How the results depend on the processing

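Counts of genes of the set that passed moved by over 1.5 times as follows, and the cause was not tested. In jejunum, smooth muscle and fat cell scores as covariates gave 3 for FAT-40 on CAS, 0 for FAT-40 on WPI and 1 for FAT-55 on WPI. Plasma, Paneth and goblet cell scores gave 0 for FAT-55 on CAS and 0 on WPI, and stem sums gave 5 for FAT-55 on WPI. In liver, stem sums gave 0 for FAT-40 and 4 for FAT-55 on WPI, 0 for both levels on CAS, 0 for WPI against CAS at FAT-40 and 0 for the difference of the FAT-55 responses. The random effect for stem gave 2 for FAT-40 and 4 for FAT-55 on WPI, 2 for FAT-55 on CAS, 0 for WPI against CAS at FAT-40 and 0 for the difference of the FAT-55 responses. Without the filter that difference gave 0, and DESeq2 gave 1 for the FAT-40 responses. In hypothalamus, edgeR on recovered reads gave 6 for FAT-40 on WPI, and 1 for each level on CAS. Removing the GC and length trend gave 6 for FAT-40 on WPI and 1 for FAT-55 on CAS. Stem means gave 0 for both levels on WPI, and the random effect gave 1 for FAT-55 on WPI. Without the libraries that stand apart there were 4 for FAT-55 on WPI, 1 for WPI against CAS at FAT-55 and 1 (Calr) for the difference of the FAT-55 responses.

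Of 24 calls of single genes in jejunum, DESeq2, median-of-ratios scaling and leaving out the library that stands apart kept 24, no filter 23, the random effect 22 and stem sums 20. Of 21 in liver they kept 21, 21, 21, 18, 11 and 5. Of 4 in hypothalamus, edgeR and both other pseudocounts kept 4, and 1 was kept without the libraries that stand apart. None of the 47 of 49 called values recomputed with a library left out moved by over 1.5 times. No paired analysis was possible because replicate numbers were given in accession order and each mouse had 1 diet; tissues of a mouse were paired by identifier. Sdf2l1 in liver, at 73 reads or more a library, had the fewest reads.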
